A study of Sus scrofa with 21 samples.

Results

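The 9 genes described here form the core of the transcriptional circuit that sets mitochondrial and fatty acid metabolism in heart muscle, and they were chosen by symbol from the deposited count table. The symbols were PPARA, PPARD, PPARGC1A, PPARGC1B, ESRRA, ESRRB, ESRRG, NRF1 and TFAM. Each symbol was carried by 1 row, so 9 of the 25880 genes in the table were members, and all 9 were among the 15359 genes that passed the filter on low counts. The rule reads symbols alone, and the set was proposed with earlier results of these data known.

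The series holds 21 hearts of young pigs (Sus scrofa), each sequenced as 1 library of total RNA. In the infarct groups (MI) the left descending coronary artery was tied off for good on postnatal day 1, and the hearts were collected on day 7 (n = 3), day 14 (n = 3) and day 28 (n = 2). The control pigs, called naive in the sample titles, were collected on day 1 (n = 2), day 3 (n = 2), day 7 (n = 3), day 14 (n = 3) and day 28 (n = 3). RNA came from a piece of tissue at the border of the ischaemic region, or from the same region of control hearts. The treatment protocol describes age-matched normal pigs that had the operation without the tie, which conflicts with the word naive, and which of these applies to the controls is unsettled. All pigs were bottle-fed and kept in an incubator, and the labels name no sex, litter, batch or date. No group carried a genetic change.

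As background, PPAR alpha and PPAR delta are nuclear receptors that bind fatty acids and, paired with a retinoid X receptor, switch on genes of fatty acid uptake and oxidation. The estrogen-related receptors (ERR alpha, beta and gamma) are orphan nuclear receptors that act on genes of oxidative phosphorylation and the citric acid cycle. The coactivators PGC-1 alpha and PGC-1 beta, made from PPARGC1A and PPARGC1B, dock on both families and on NRF1, the nuclear respiratory factor. NRF1 in turn acts on TFAM, a packaging and transcription factor of mitochondrial DNA. In mammals the circuit is known for the shift of the heart toward fatty acid oxidation after birth.

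The libraries held 37002909 to 95559841 counts, and ESRRB, the member with the fewest counts in any library, had 159 to 1394. On day 7 the MI libraries held 75071994 to 92831231 counts and the naive ones 37002909 to 48321350, without overlap. Levels are given as CPM, the counts of a gene scaled to the library size that the trimmed mean of M values (TMM) gives. Of 15 cardiomyocyte markers, 13 were in the table, and 1 of those, TNNI3, was at 0 in all 21 libraries, while MYH7, a ventricular myosin heavy chain, had 17670 to 60020 CPM. The summed cardiomyocyte markers came to 45930 to 61010 CPM in the MI hearts of day 28 and to 89750 to 104200 CPM in the naive hearts of day 28. The table held 4 libraries that stood apart from the rest by 1 abundant transcript without a symbol, at 5.06 to 12.1 CPM against 2819 to 8808 CPM in the other 17. They were replicate 3 of MI day 7, replicate 3 of naive day 14, replicate 2 of MI day 28 and replicate 2 of naive day 28. The calls of NRF1, PPARGC1A, LPIN1 and the fatty acid and ERR target lists are given with and without them. Not every other result is given without them. In whole tissue, fewer cells of a type and less RNA per cell cannot be told apart.

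The sequence just upstream of an annotated start is shown for the 3 members on which the results turn, with its base composition and short motifs. Each window holds the 250 bases before the start, on the strand of the gene, 5′ to 3′, from the RefSeq annotation of Sscrofa11.1, the build that the submitters' processing notes also name. The PPARGC1A window lies at chr8:17946935-17947184 on the minus strand and has a GC content of 48.8%, and its start is that of a curated transcript. This start lies inside the annotated gene, which reaches to 18527953, so it is not of the same kind as the first annotated starts used for ESRRB and NRF1. The capitals mark TGACGTCA, the palindromic cyclic AMP response element.
PPARGC1A: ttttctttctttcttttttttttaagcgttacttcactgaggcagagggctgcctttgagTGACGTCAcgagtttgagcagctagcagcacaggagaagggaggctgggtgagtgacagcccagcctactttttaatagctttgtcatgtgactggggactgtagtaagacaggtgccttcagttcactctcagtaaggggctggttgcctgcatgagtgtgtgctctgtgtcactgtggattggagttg
The ESRRB window lies at chr7:99510885-99511134 on the plus strand and has a GC content of 49.2%, before the first annotated start. The capitals mark TGACCTT, which is the ERR half-site AAGGTCA read on the opposite strand.
ESRRB: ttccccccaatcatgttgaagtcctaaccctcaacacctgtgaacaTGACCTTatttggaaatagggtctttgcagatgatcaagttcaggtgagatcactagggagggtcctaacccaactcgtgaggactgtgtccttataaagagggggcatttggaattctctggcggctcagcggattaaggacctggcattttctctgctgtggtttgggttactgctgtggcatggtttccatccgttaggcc
The NRF1 window lies at chr18:19142679-19142928 on the minus strand and has a GC content of 70.4%, before the first annotated start. It holds none of the motifs searched and so has no capitals.
NRF1: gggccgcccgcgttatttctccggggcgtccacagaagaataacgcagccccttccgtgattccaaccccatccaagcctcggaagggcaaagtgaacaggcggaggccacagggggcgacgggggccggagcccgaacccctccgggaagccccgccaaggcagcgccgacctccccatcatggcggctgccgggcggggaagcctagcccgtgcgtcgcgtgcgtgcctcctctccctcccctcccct
The search covered 5 motifs on both strands in the windows of the 9 members. It also covered 19559 windows of protein-coding genes with an mRNA model on the assembled chromosomes, called all windows below. The motifs are given with their shares. The motifs were AAGGTCA for ERR, which 3.2% of all windows held, a PPAR direct repeat of AGGTCA, any base and AGGTCA (0.0358%), GCGCA, any base and GCGC for NRF1 (4.77%), TGACGTCA for the cyclic AMP response element (1.72%) and CCGGAAG for ETS factors (7.95%). The ERR motif is contained in part in the PPAR repeat, since both hold AGGTCA. Of the 9 members, PPARGC1A held the cyclic AMP response element, with its first base 190 before the start, ESRRB held the ERR half-site, with its first base 204 before the start, and none of the other 7 held any of the motifs. A match of letters is a description and not a site of binding.

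The files give the genes by symbol and Ensembl identifier, and the places below are those of the RefSeq genes of the same build. PPARA (ENSSSCG00000000006) lies at chr5:3302755-3321091 on the minus strand, and PPARD (ENSSSCG00000001539) at chr7:31222533-31295221 on the plus strand. PPARGC1A (ENSSSCG00000029275) lies at chr8:17841844-18527953 on the minus strand and PPARGC1B (ENSSSCG00000014437) at chr2:150823338-150924871 on the plus strand. ESRRA (ENSSSCG00000013028) lies at chr2:7803504-7812868 on the minus strand, ESRRB (ENSSSCG00000002388) at chr7:99511135-99699478 on the plus strand and ESRRG (ENSSSCG00000010814) at chr10:6710615-7371419 on the minus strand. NRF1 (ENSSSCG00000016566) lies at chr18:19008408-19142678 and TFAM (ENSSSCG00000040185) at chr14:92261713-92279731, both on the minus strand. Genes on the other strand overlap 3 of the members. PPARGC1A shares 5886 and 12341 bases of its span with 2 long noncoding genes, ESRRB shares 33638 bases with 1, and ESRRA shares 53 bases with TRMT112. The microRNA MIR378-1 lies inside PPARGC1B on the same strand. No source used here gives the strand setting of the counting, so reads of these partners and of the members cannot be told apart.

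Per length of the longest RefSeq mRNA, the median level over the 21 libraries was 23.9 CPM per kb for TFAM, 20.5 for PPARGC1A and 20.2 for ESRRA. It was 12.2 CPM per kb for PPARA, whose only RefSeq model is 1404 bases long, and 9.11 for PPARD. PPARGC1B had 2.48 CPM per kb, ESRRG 2.08, ESRRB 1.79 and NRF1 1.43. The place of PPARGC1A among the 9 depended on the length used. Per length of all its RefSeq exons merged it had 11.6 CPM per kb, below ESRRA at 20.1 and PPARA at 12.2. Thus PGC-1 alpha and ERR alpha were the most abundant of their families per length, and the lengths are those of RefSeq and not of the annotation the authors counted on. All values below are CPM without division by length and are compared only within a gene.

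The 9 members differed in how much they varied among pigs. TFAM ranged from 30.1 to 48.9 CPM over the 21 libraries with a median of 41.1, PPARD from 27.1 to 48.6 CPM with a median of 37.3, and NRF1 from 10.7 to 20.3 CPM with a median of 13.9. Their highest libraries were 1.63, 1.79 and 1.91 times their lowest. At the other end, ESRRB ranged from 2.28 to 26.0 CPM with a median of 9.12, an 11.4-fold range, and PPARA from 3.42 to 26.1 CPM with a median of 17.1, a 7.64-fold range. PPARGC1B ranged from 11.8 to 51.6 CPM, ESRRG from 12.5 to 48.9, PPARGC1A from 81.0 to 315.1 and ESRRA from 15.3 to 56.9 CPM. The biological coefficient of variation of the fit put TFAM, PPARD and NRF1 at percentiles 8.79, 9.43 and 10.1 of the 15359 genes, and PPARA and ESRRB at percentiles 74.7 and 71.2.

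The order of the 8 group means is given for each member as a description. MI day 7 had the highest group mean for PPARA, PPARGC1A, PPARGC1B, ESRRA and NRF1, and MI day 28 the lowest for PPARA, PPARGC1A and TFAM. When the 8 groups of a gene were ranked by mean, 60 of 63 neighbouring pairs overlapped in single libraries. The pairs that did not were naive day 28 below naive day 3 for PPARGC1A, naive day 1 below naive day 3 for PPARGC1B, and MI day 28 below naive day 7 for ESRRB.

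**Figure D1:**
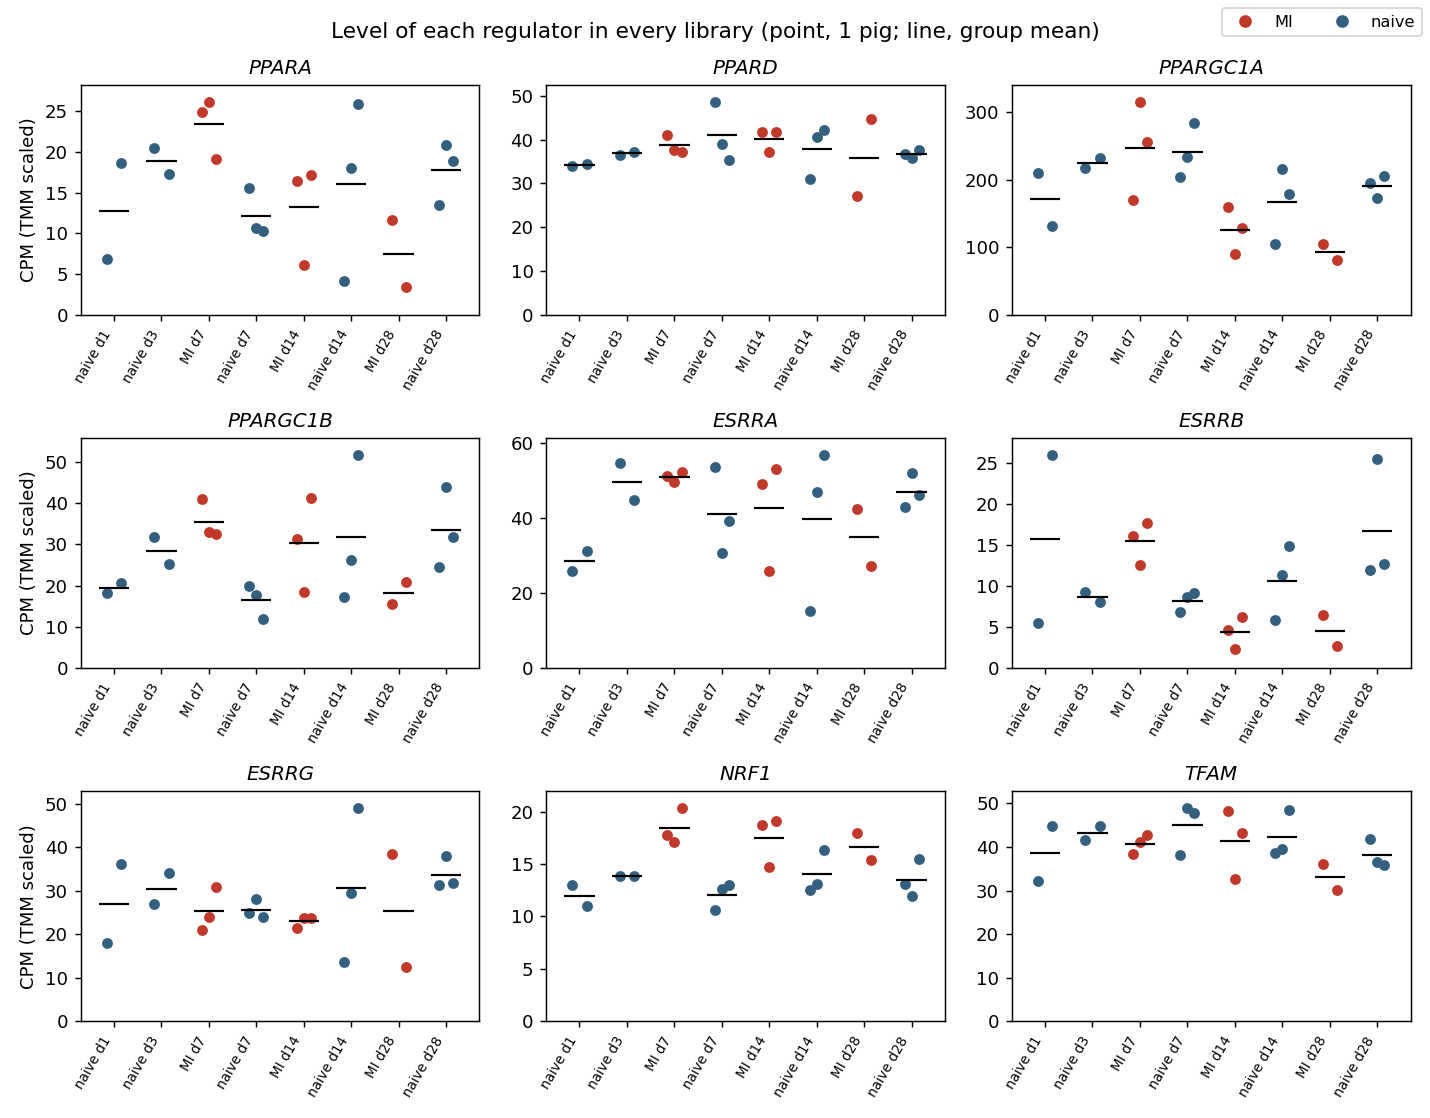
Level of each of the 9 regulators in CPM (TMM scaled, y axes from 0) in the 8 groups, by day along the x axis with MI left of naive of the same day; each point is 1 pig and each line a group mean, red for MI and blue for naive. NRF1 is the panel in which the MI points of all 3 days lie high (14.7 to 20.3 CPM, against 10.7 to 16.4 CPM in naive hearts of the same days), and in the PPARGC1A panel the MI points of day 28 (81.0 and 104.3 CPM) lie under the naive points of that day (173.4 to 205.1 CPM).

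After infarction, NRF1 was the only member that passed the threshold for the mean of the 3 days. PPARGC1A was the only member that passed between the early and the late infarct. There ESRRB and PPARA had larger log2 fold changes that did not pass (-1.75 and -1.64, against -1.41 for PPARGC1A). The PPARGC1A call was lost in 4 of 5 fits without a single library, and the NRF1 call in 8 of 17. Averaged over days 7, 14 and 28, NRF1 rose 1.33-fold in MI hearts relative to naive hearts (adjusted p = 0.0314). In MI hearts of day 28, PPARGC1A fell to 0.376 of its level in MI hearts of day 7 (adjusted p = 0.0419). No other member passed in any of the 13 comparisons, and no member passed between ages of naive hearts. Here and below, log2 fold changes, their standard errors (SE) and p-values come from edgeR's two-sided quasi-likelihood test, fitted to all 21 libraries with 1 mean for each group, with Benjamini-Hochberg adjustment over 15359 genes. A gene was called at an adjusted p under 0.05. The p-values measure the spread between these pigs.

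PPARGC1A encodes PGC-1 alpha, the inducible coactivator of the circuit. On day 7 it had 169.6, 315.1 and 255.6 CPM in MI hearts, against 204.6, 234.3 and 283.4 CPM in naive hearts. The naive range lay inside the MI range (log2 fold change 0.04, SE 0.283, adjusted p = 0.976). On day 14 it had 160.1, 90.1 and 128.9 CPM in MI hearts, against 104.2, 215.6 and 179.5 CPM in naive hearts (log2 fold change -0.40, SE 0.283, adjusted p = 0.999). On day 28 it had 104.3 and 81.0 CPM in MI hearts, against 194.5, 173.4 and 205.1 CPM in naive hearts. Both MI libraries of day 28 lay under all 3 naive libraries, with a log2 fold change at -1.04 (SE 0.327), and the adjusted p of 0.0595 missed the threshold. The same step was -0.98 on the log2 scale with an adjusted p of 0.0275 by DESeq2. Cardiomyocyte markers differed between the same groups, and macrophage markers were high in replicate 2 of MI day 28 alone. The summed cardiomyocyte markers were 61010 and 45930 CPM in the MI hearts of day 28, against 89750 to 104200 CPM in the naive ones, and 13 of 13 macrophage markers summed to 389.9 and 4203 CPM, against 92.9 to 475.7 CPM. Their part in the PPARGC1A values was not tested.

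Within the infarct groups, PPARGC1A had 104.3 and 81.0 CPM on day 28 and 169.6 to 315.1 CPM on day 7, with no overlap. This was the call named above (log2 fold change -1.41, SE 0.332, adjusted p = 0.0419), in a comparison in which 1.74% of all genes were called and 0.43% were called lower. It was not called without replicate 1 (adjusted p = 0.0846), replicate 2 (0.162) or replicate 3 (0.0641) of MI day 7, nor without replicate 2 of MI day 28 (0.12), and its log2 fold change was then -1.20 to -1.62. Without the 4 libraries that stood apart the value was -1.18 (adjusted p = 0.149), and with limma voom it was -1.40 (adjusted p = 0.194). The step from day 7 to day 28 was not called as different between MI and naive hearts (difference of log2 fold changes -1.08, SE 0.429, adjusted p = 0.194).

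PPARGC1B encodes PGC-1 beta, the related coactivator. On day 7 it had 40.9, 33.0 and 32.6 CPM in MI hearts, against 19.8, 17.8 and 11.8 CPM in naive hearts. Every MI library of that day lay above every naive one (log2 fold change 1.11, SE 0.355, unadjusted p = 0.00628), but the adjusted p was 0.228. By day 14 the gene had 31.4, 18.4 and 41.1 CPM in MI hearts, against 17.2, 26.3 and 51.6 CPM in naive hearts, with full overlap (log2 fold change -0.06, SE 0.349). On day 28 the order was the other way round, with 15.5 and 20.8 CPM in MI hearts, against 24.5, 43.8 and 31.8 CPM in naive hearts (log2 fold change -0.88, SE 0.402, adjusted p = 0.171). The difference between the MI effects of day 28 and day 7 was -1.99 (SE 0.538, unadjusted p = 0.00186, adjusted p = 0.109).

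Of the PPAR receptors, PPARA, the fatty acid receptor most active in heart and liver, followed the order of PPARGC1B. On day 7 it had 24.9, 26.1 and 19.1 CPM in MI hearts, against 15.5, 10.6 and 10.3 CPM in naive hearts, without overlap (log2 fold change 0.95, SE 0.559, adjusted p = 0.511). On day 14 it had 16.5, 6.07 and 17.1 CPM in MI hearts, against 4.15, 18.03 and 25.9 CPM in naive hearts (log2 fold change -0.28, SE 0.554, adjusted p = 0.999). By day 28 the gene had 11.6 and 3.42 CPM in MI hearts, against 13.5, 20.8 and 18.9 CPM in naive hearts, again without overlap but below them (log2 fold change -1.24, SE 0.647, adjusted p = 0.228). Replicate 1 of naive day 14 and replicate 2 of MI day 28 held the lowest PPARA levels of the series, and 95% intervals of its log2 fold changes spanned over 2 units on each of the 3 days.

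PPARD, the receptor found in nearly all tissues, was the flattest of the nuclear receptors. It had 41.2, 37.7 and 37.3 CPM in MI hearts of day 7, against 48.6, 39.1 and 35.5 CPM in naive hearts. By day 14 the gene had 41.7, 37.3 and 41.8 CPM in MI hearts, against 30.9, 40.6 and 42.2 CPM in naive hearts. On day 28 it had 27.1 and 44.8 CPM in MI hearts, against 36.7, 35.8 and 37.7 CPM in naive hearts. The MI libraries of day 28 lay on either side of the naive ones. Averaged over the 3 days, the log2 fold change was -0.01 (SE 0.103, 95% interval -0.233 to 0.212, adjusted p = 0.965).

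The 3 ERR genes did not share a course. ESRRB, which is best known from stem cells, had 16.1, 12.6 and 17.7 CPM in MI hearts of day 7, against 6.90, 8.66 and 9.12 CPM in naive hearts. These groups did not overlap (log2 fold change 0.91, SE 0.508, adjusted p = 0.484). On day 14 ESRRB had 4.70, 2.28 and 6.17 CPM in MI hearts, against 5.84, 11.3 and 14.9 CPM in naive hearts (log2 fold change -1.28, SE 0.513, adjusted p = 0.882). By day 28 the gene had 6.46 and 2.69 CPM in MI hearts, against 11.9, 25.5 and 12.7 CPM in naive hearts. Both MI libraries lay under the naive ones on day 28, by the largest log2 fold change among the members, -1.86 (SE 0.604), with an adjusted p of 0.0671 by edgeR and 0.0158 by DESeq2. ESRRB thus lay above the naive hearts on day 7 and below them on day 28, and the difference of these effects was -2.77 (SE 0.786, unadjusted p = 0.00265, adjusted p = 0.118). Replicate 2 of naive day 1, at 26.0 CPM, was as high as replicate 2 of naive day 28, at 25.5 CPM, while the other naive libraries had 5.49 to 14.9 CPM.

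ESRRA encodes ERR alpha, a main driver of respiratory chain genes with PGC-1 alpha. It had 51.4, 49.8 and 52.3 CPM in MI hearts of day 7, against 53.7, 30.8 and 39.2 CPM in naive hearts, and the tight MI group lay inside the upper part of the naive range. On day 14 it had 49.1, 25.9 and 53.1 CPM in MI hearts, against 15.3, 47.1 and 56.9 CPM in naive hearts. On day 28 it had 42.4 and 27.4 CPM in MI hearts, against 43.0, 52.2 and 46.2 CPM in naive hearts, without overlap (log2 fold change -0.43, SE 0.406, adjusted p = 0.515). The gap between the nearest libraries of day 28 was small, and the mean over the 3 days was -0.01 on the log2 scale (SE 0.216, adjusted p = 0.992).

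ESRRG encodes ERR gamma, which in mice drives the oxidative programme of the newborn heart. It had 20.9, 23.8 and 30.9 CPM in MI hearts of day 7, against 24.8, 28.1 and 23.9 CPM in naive hearts. By day 14 the gene had 21.3, 23.6 and 23.8 CPM in MI hearts, against 13.7, 29.4 and 48.9 CPM in naive hearts. By day 28 the gene had 38.3 and 12.5 CPM in MI hearts, against 31.3, 37.8 and 31.7 CPM in naive hearts. The groups overlapped on all 3 days, and the MI libraries of day 28 were the highest and the lowest of that day (log2 fold change -0.40, SE 0.445, adjusted p = 0.585).

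NRF1, the nuclear respiratory factor that binds promoters of respiratory chain genes, had 17.8, 17.1 and 20.3 CPM in MI hearts of day 7, against 10.7, 12.6 and 13.0 CPM in naive hearts. The groups of day 7 did not overlap (log2 fold change 0.61, SE 0.164, adjusted p = 0.157 by edgeR and 0.0348 by DESeq2). On day 14 NRF1 had 18.8, 14.7 and 19.1 CPM in MI hearts, against 12.6, 13.1 and 16.4 CPM in naive hearts (log2 fold change 0.32, SE 0.164). On day 28 it had 17.9 and 15.4 CPM in MI hearts, against 13.1, 12 and 15.5 CPM in naive hearts (log2 fold change 0.30, SE 0.182). On days 14 and 28, 1 MI library lay inside the naive range. Over the 3 days NRF1 averaged 17.6 ± 1.89 CPM in MI hearts (SD, n = 8) and 13.2 ± 1.73 CPM in naive hearts (SD, n = 9). All 8 MI libraries lay above the naive median of 13.0 CPM, and 6 of them above the highest naive library. The mean of the 3 daily log2 fold changes was 0.41 (SE 0.0981, 95% interval 0.199 to 0.623, adjusted p = 0.0314), in a comparison in which 4.43% of all genes were called, 2.36% higher. The MI effect was not called as different between days (day 28 minus day 7 -0.31, SE 0.246, adjusted p = 0.513).

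The NRF1 call was close to the threshold. Leaving out any 1 of the 17 libraries gave log2 fold changes of 0.38 to 0.45, and in 8 of those 17 fits the adjusted p lay between 0.0509 and 0.0771. The 8 libraries were replicates 1 and 3 of MI day 7, replicate 3 of MI day 14, replicate 1 of MI day 28, replicate 2 of naive day 7, replicate 2 of naive day 14 and replicates 1 and 2 of naive day 28. Without the 4 libraries that stood apart, NRF1 had 0.43 on the log2 scale with an adjusted p of 0.056. Over all alternatives, those 17 fits included, NRF1 was called in 15 of 24. For the same mean of the 3 days, 12 of 12 tested cardiomyocyte markers had negative log2 fold changes (median -0.38, 1 called lower), and 5 of 5 tested neutrophil markers were called higher by edgeR (median 4.55). Summed neutrophil markers were high in 1 MI library of each day. They were 29.97 CPM in replicate 3 of MI day 7, 24.34 in replicate 2 of MI day 14 and 39.74 in replicate 2 of MI day 28. The other MI libraries had 1.051 to 5.361 CPM, against 0.7646 to 2.65 CPM in naive hearts of these days. TREM1 and S100A8 were each at 0 in 4 of the 21 libraries. The part of these cell types in the NRF1 level was not tested.

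TFAM, the mitochondrial DNA packaging and transcription factor that NRF1 is known to act on, gave no such difference. It had 38.4, 41.1 and 42.8 CPM in MI hearts of day 7, against 38.1, 48.9 and 47.9 CPM in naive hearts. On day 14 it had 48.3, 32.7 and 43.3 CPM in MI hearts, against 38.6, 39.6 and 48.4 CPM in naive hearts. By day 28 the gene had 36.0 and 30.1 CPM in MI hearts, against 41.9, 36.5 and 35.8 CPM in naive hearts. Over the 3 days TFAM averaged 39.1 ± 5.997 CPM in MI hearts (SD, n = 8) and 41.7 ± 5.29 CPM in naive hearts (SD, n = 9), a mean log2 fold change at -0.12 (SE 0.102, 95% interval -0.345 to 0.0963, adjusted p = 0.494). The interval of TFAM lies below that of NRF1, though the difference between the genes was not tested. Over the 21 libraries NRF1 and TFAM had a Pearson r of 0.0657 on the log2 scale. After the group means were removed it was 0.505, and both values are given as descriptions.

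**Figure D2:**
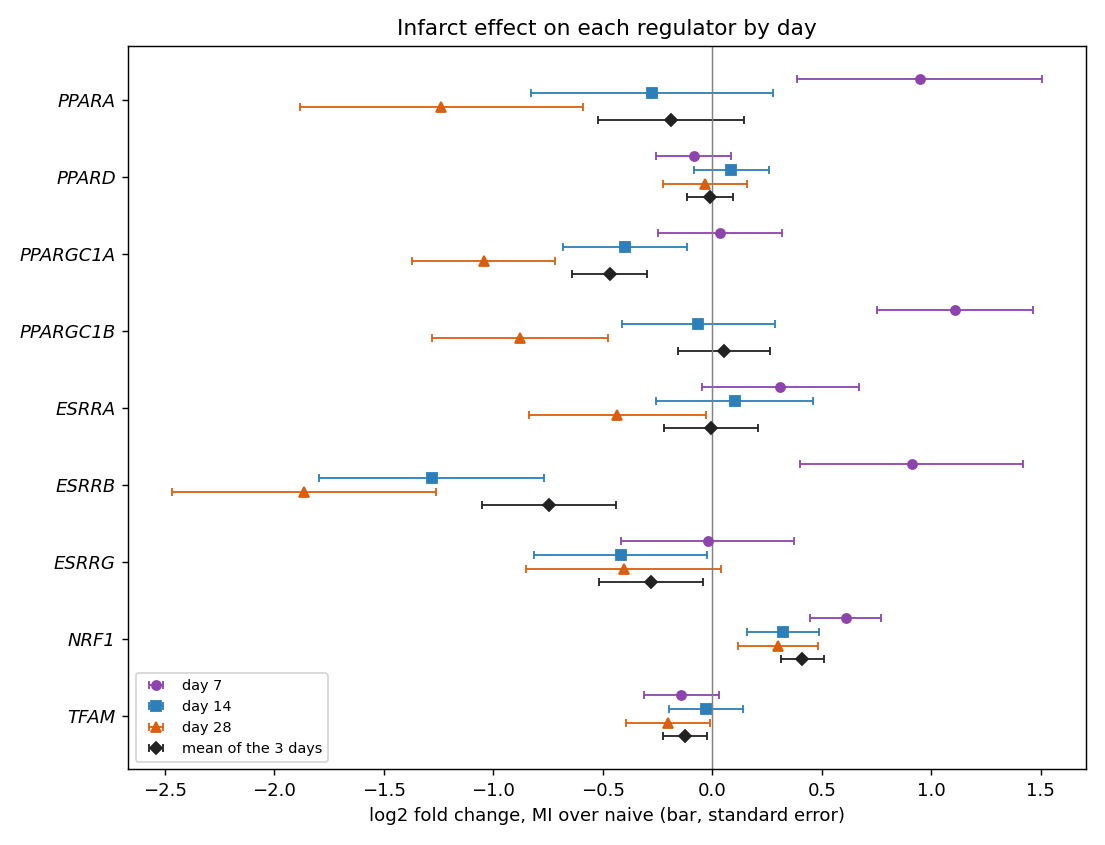
Log2 fold change of MI over naive hearts (x axis) for each of the 9 regulators (rows) on day 7 (circles), day 14 (squares), day 28 (triangles) and as the mean of the 3 days (diamonds); bars are standard errors from edgeR. PPARA, PPARGC1B, ESRRA and ESRRB lie right of 0 on day 7 and left of it on day 28, as does PPARGC1A, which is at 0.04 on day 7. NRF1 lies right of 0 on every day, and the values of PPARD and TFAM all lie between -0.20 and 0.09.

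Counted over the members, none was called on day 7, where edgeR called 0 of 15359 genes (0%) and 12.4% of all genes had an unadjusted p under 0.05, against 2 of the 9 members. For 4 members (PPARA, PPARGC1B, ESRRB and NRF1) the levels had every MI library above every naive one and none had the reverse, against 13.9% and 10.4% of all genes. The MI libraries of that day also held more counts in total than the naive ones, without overlap, and the part of depth was not tested. On day 14 none was called (0% of all genes), 1 had an unadjusted p under 0.05 (5.35% of all genes) and none was without overlap (8.22% of all genes). On day 28 none of the 9 was called, against 6.86% of all genes, 3 had an unadjusted p under 0.05 (27% of all genes), and 5 (PPARA, PPARGC1A, PPARGC1B, ESRRA and ESRRB) had both MI libraries below every naive one and none had the reverse, against 21.4% and 16.4% of all genes. The median log2 fold change of the 9 was 0.31 on day 7, -0.06 on day 14 and -0.43 on day 28, beside 0.03, -0.01 and 0.00482 over all genes. DESeq2 called 1 member on day 7 and 2 on day 28, and limma voom called 3 on day 7 (PPARA, PPARGC1B and NRF1). Over all genes, the alternatives other than single left-out libraries called 0 to 2040 on day 7 and 2 to 2213 on day 28.

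The order of MI and naive hearts turned round between day 7 and day 28 for 3 of the 9 members, PPARA, PPARGC1B and ESRRB, with no overlap on either day. The same pattern was seen in 462 genes, 3.01% of those tested, and the opposite one in 161, 1.05%. The difference of the MI effects, day 28 minus day 7, was called for none of the 9 (0.013% of all genes, 2 genes), while 4 of the 9 had an unadjusted p under 0.05 (19% of all genes). For PPARA this difference was -2.18 (SE 0.855, adjusted p = 0.191). DESeq2 called PPARGC1B (adjusted p = 0.0215) and ESRRB (0.0175), and an edgeR fit of the 4 compared groups alone called PPARGC1B (0.0488). Over all genes, the alternatives other than single left-out libraries called 1 to 717 for this difference. Day 14 minus day 7 gave no call among the members (0.00651% of all genes, 1 gene), and its largest value was that of ESRRB at -2.19 (SE 0.721, adjusted p = 0.588). Both differences share the day 7 libraries.

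In naive hearts no member was called between ages, and edgeR called 0% of all genes in each of the 5 comparisons. From birth on, ESRRA had 26.0 and 31.1 CPM on day 1, 54.7 and 44.9 on day 3, 30.8 to 53.7 on day 7, 15.3 to 56.9 on day 14 and 43.0 to 52.2 on day 28. PPARGC1B had 18.2 and 20.7 CPM on day 1, 31.7 and 25.1 on day 3, 11.8 to 19.8 on day 7, 17.2 to 51.6 on day 14 and 24.5 to 43.8 on day 28. PPARGC1A had 209.7 and 132 CPM on day 1 and 217.5 and 231.5 CPM on day 3, and NRF1 had 13.0 and 11.01 CPM on day 1 and 13.9 CPM in both libraries of day 3. Day 3 lay above day 1 without overlap for PPARD, PPARGC1A, PPARGC1B, ESRRA and NRF1, against 19.7% of all genes, and 8 of the 9 had a positive log2 fold change (ESRRA 0.80, SE 0.442, adjusted p = 0.965). Day 28 lay above day 1 without overlap for PPARD, PPARGC1B (log2 fold change 0.78, SE 0.400) and ESRRA (0.72, SE 0.410), against 12.6% of all genes, each with an adjusted p of at least 0.867. PPARGC1B on day 14 against day 7 (log2 fold change 0.94, SE 0.354) had the smallest adjusted p between ages, 0.455 by edgeR, and limma voom called it (adjusted p = 0.0283). Over all genes, the alternatives other than single left-out libraries called 0 to 918 in that comparison. Day 1 and day 3 had 2 pigs each.

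In MI hearts, day 28 lay below day 7 without overlap for 6 members, the 5 named for day 28 above and TFAM, against 18.3% of all genes, and PPARGC1A alone was called. The log2 fold changes of the others were -1.64 for PPARA (SE 0.657), -0.97 for PPARGC1B (SE 0.403), -0.55 for ESRRA (SE 0.407), -1.75 for ESRRB (SE 0.601) and -0.30 for TFAM (SE 0.191), with adjusted p-values of 0.109 to 0.431. In the same comparison 11 of 12 cardiomyocyte markers had negative log2 fold changes (median -0.61, 1 called lower), with sums of 61010 and 45930 CPM on day 28, against 83940 to 89230 CPM on day 7. All 13 macrophage markers had positive ones (median 2.10, none called), with sums of 389.9 and 4203 CPM on day 28, against 327.4 to 608.3 CPM on day 7. The part of these cell types in the members' levels was not tested. Any difference among the 8 groups was called for none of the 9, against 0.762% of all genes, and the smallest adjusted p was that of PPARGC1A, 0.137.

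The members' levels differed between single libraries as well as between groups. All 9 members lay below their own medians in replicate 1 of naive day 14, and 6 of them were among their 3 lowest libraries. Replicate 2 of MI day 28 and replicate 2 of MI day 14 each held 5 members among their 3 lowest. At the other end, replicate 3 of naive day 14 held 6 members among their 3 highest. Summed cardiomyocyte markers were 45930 CPM in replicate 2 of MI day 28, 60520 in replicate 2 of MI day 14, 72220 in replicate 1 and 116400 in replicate 3 of naive day 14, within 45930 to 116400 CPM over all libraries. Summed fibroblast markers (10 of 10 in the table) were 20370, 17040, 9348 and 2830 CPM in the same order. Not every library followed this order. Replicate 1 of naive day 1 had 8 members below their medians and 4 among their 3 lowest, with 90240 CPM of cardiomyocyte and 6518 CPM of fibroblast markers. Replicate 1 of MI day 28 had 2 members among their 3 lowest, with 61010 and 1927 CPM. The part of cell composition in the members' levels was not tested.

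**Figure D3:**
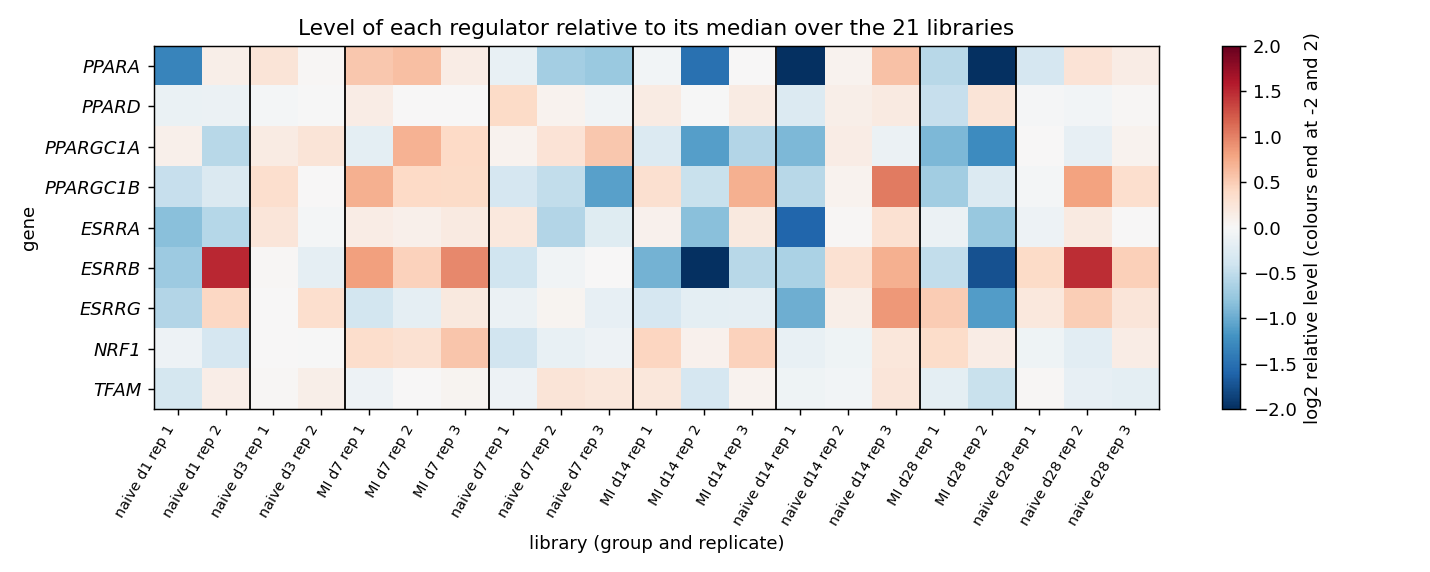
Log2 level of each regulator (rows) relative to its own median over the 21 libraries (columns, by group and replicate, black lines between groups); red is above and blue below the median, and colours end at -2 and 2. Replicate 1 of naive day 14 is blue in all 9 rows, and NRF1 is red in every MI column.

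Across the 21 libraries PPARA and ESRRA had the closest course among the members examined in pairs, with a Pearson r of 0.863 and a Spearman rho of 0.778 on the log2 scale, and r was 0.824 without the 2 libraries farthest in PPARA. PPARA and ESRRB had an r of 0.743, while PPARA and ESRRG had 0.702 that dropped to 0.384 without the same libraries. The median r over the 36 pairs of members was 0.398. The libraries share groups, depth and composition, so these are descriptions without a test. Of all genes with a symbol, those most like PPARA were MAPKAPK2 (r = 0.94), RAPGEF1 (0.927) and DMD (0.92). Those most like ESRRA were MGRN1 (0.93), SMCR8 (0.923) and MYLK3 (0.899), and those most like PPARGC1B were ZNF318 (0.907), RAD54L2 (0.893) and RBM27 (0.892). Those most like PPARGC1A were RRAGD (0.885), TRIM55 (0.87) and ADRA1B (0.863), and those most like ESRRG were PHKA1 (0.887), RIMS1 (0.866) and USP25 (0.862). ESRRB was nearest to DAPL1 (0.857), MTUS2 (0.795) and GHR (0.793), and NRF1 to ST13 (0.852), SH2B1 (0.837) and RBM6 (0.826). TFAM was nearest to ZNF383 (0.807), TIPRL (0.801) and ACADSB (0.798), and PPARD to TTLL12 (0.779), ABHD8 (0.769) and DHX33 (0.769). These are maxima over all genes tested.

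The other genes of the circuit were taken as 7 lists and are given for the mean of the 3 days, with the all-gene median log2 fold change of 0.03 beside each. Among 20 heterodimer partners and coregulators the median was 0.03, and 1 fell in MI hearts, LPIN1, lipin 1, an enzyme of lipid synthesis that also acts as a coactivator with PGC-1 alpha. LPIN1 averaged 34.6, 26.2 and 30.4 CPM on days 7, 14 and 28 in MI hearts, against 46.2, 59.3 and 57.3 CPM in naive hearts (log2 fold change -0.84, SE 0.169, adjusted p = 0.0178), and it was not called without the 4 libraries that stood apart. Among 23 upstream regulators of PGC-1 none was called (median 0.02). On day 28 alone TWIST1, a repressor of PGC-1 targets, rose to 3.91 ± 1.59 CPM in MI hearts (SD, n = 2), against 0.794 ± 0.334 CPM in naive hearts (SD, n = 3), with a log2 fold change at 2.29 (SE 0.448, adjusted p = 0.0155). Fibroblast markers summed to 1927 and 20370 CPM in the MI hearts of day 28, against 3858 to 6627 CPM in the naive ones, and their part in the TWIST1 level was not tested. TWIST1 was not called with limma voom, with the compared groups alone, or without replicate 2 or replicate 3 of naive day 28. PPARG, the third PPAR and the adipocyte receptor, rose to 9.62 ± 0.725 CPM in MI hearts of day 28 (SD, n = 2), against 3.90 ± 0.670 CPM in MI hearts of day 7 (SD, n = 3; log2 fold change 1.30, SE 0.316, adjusted p = 0.0481). The PPARG call rests in part on libraries that stood apart and is not given without them. Adipocyte markers (7 of 7 in the table) summed to 144.7 and 669.5 CPM in MI hearts of day 28, against 31.1 to 176.4 CPM in MI hearts of day 7, and their part was not tested.

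In the target lists the calls were all in the lower direction. Of 22 tested fatty acid targets (25 listed), 8 fell in MI hearts and none rose, 21 of 22 values were negative, and the median log2 fold change was -0.50, in a comparison in which 4.43% of all genes were called. The 12 tested cardiomyocyte markers were all negative in it too (median -0.38, 1 called lower), and their part in the values of this list and of the next was not tested. Among the fatty acid targets ACADM, the medium-chain acyl-CoA dehydrogenase, averaged 256.7, 288.3 and 172.6 CPM on days 7, 14 and 28 in MI hearts, against 436, 405.2 and 388.6 CPM in naive hearts (log2 fold change -0.81, SE 0.137, adjusted p = 0.0107). MLYCD, which removes malonyl-CoA, had -1.04 (SE 0.245, adjusted p = 0.0304), ETFDH, which passes electrons of fatty acid oxidation to ubiquinone, -0.59 (SE 0.136, adjusted p = 0.0293) and HADH, a dehydrogenase of short-chain intermediates, -0.50 (SE 0.123, adjusted p = 0.035). The count rested on few pigs. It was 1 to 13 when 1 of the 17 libraries was left out, 12 and 6 without replicate 1 of MI day 14 and replicate 3 of naive day 28, 13 without replicate 1 of naive day 14 and 1 to 5 without any of the other 14, and it was 2 without the 4 libraries that stood apart.

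Of 26 tested electron transport and citric acid cycle targets of ERR (27 listed), 9 fell and none rose, all 26 values were negative, and the median was -0.46, beside the same 4.43% of all genes called and the same cardiomyocyte marker median of -0.38. SUCLA2, a subunit of succinyl-CoA synthetase, had -0.67 (SE 0.141, adjusted p = 0.0199) and CKMT2, the mitochondrial creatine kinase of muscle, -1.02 (SE 0.227, adjusted p = 0.0242). The complex I subunits NDUFS3 and NDUFS1 had -0.65 (SE 0.145, adjusted p = 0.0249) and -0.72 (SE 0.163, adjusted p = 0.026). The count was 7, 6 and 6 without replicate 2 of MI day 7, replicate 2 of naive day 28 and replicate 1 of naive day 7, it was 18, 15 and 14 without replicate 1 of MI day 14, replicate 1 of naive day 14 and replicate 1 of MI day 28, and it was 1 to 5 without any of the other 11. No member of this list was called without the 4 libraries that stood apart, with a median of -0.35. None was called among 13 other PPAR targets (median 0.04), 18 genes of mitochondrial DNA transcription and replication (median -0.23) and 13 mitochondrially encoded genes (median -0.12). On days 7 and 14 no gene of any list was called, and on day 28 there were 5 lower calls among fatty acid targets (median -0.86) and 7 among the ERR targets (median -0.78), against 6.86% of all genes called in either direction. All 12 cardiomyocyte markers were negative on that day (median -0.79, 3 called lower), and their part was not tested. The day 28 counts depended on the test and on single pigs. DESeq2 called 11 fatty acid targets lower and 1 higher, and 13 ERR targets lower, while neither list had a call with limma voom, with the compared groups alone, or without replicate 2 or replicate 3 of naive day 28. The medians with limma voom were -0.94 and -0.77. Over all genes, the alternatives other than single left-out libraries called 2 to 2213 on that day. Without replicate 1 or 2 of MI day 28 or replicate 1 of naive day 28 the lower calls were 1, 2 and 1 among fatty acid targets and 2, 0 and 1 among ERR targets, and without the 4 libraries that stood apart they were 2 and 0.

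**Figure D4:**
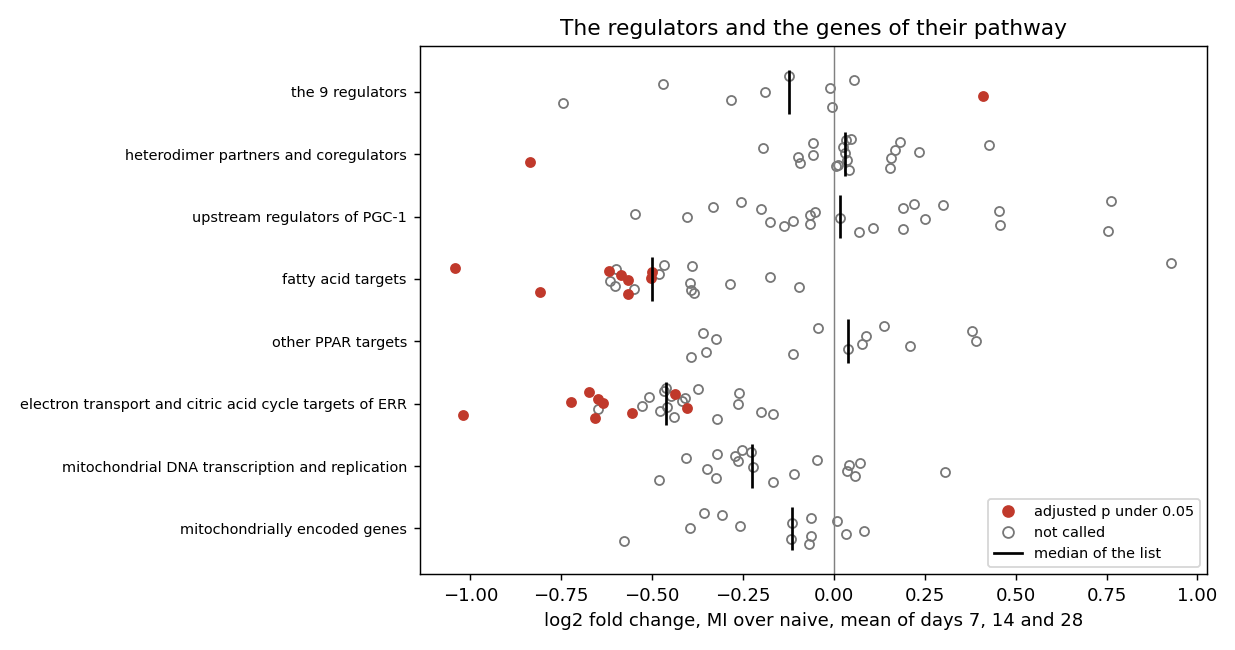
Log2 fold change of MI over naive hearts, mean of days 7, 14 and 28 (x axis), for the 9 regulators and 7 lists of genes of their pathway (rows); each circle is a gene, filled red where edgeR's adjusted p was under 0.05, and black bars are list medians. The red points of the fatty acid and ERR target lists (8 and 9 genes) lie left of 0, and the red point of the regulators is NRF1 at 0.41.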

How the data were processed

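Total RNA of 21 pig hearts, 1 library for each pig, was compared in 8 groups taken from the sample titles. What the authors deposited was a table of raw counts for Ensembl genes. Per the submitters' processing notes, Trim Galore, STAR 2.5.2, HTSeq 0.6.1, DESeq2 and the Sscrofa11.1 build were used, and the annotation release is named by no source used here. Counts of 2 pigs of a group differed by 51.7 to 914 times the counting variance over 18 pairs, so none of these pairs agreed within sampling noise. From the counts, genes were kept with filterByExpr (15359 of 25880), scaled by TMM and tested with edgeR 4.0.16 (glmQLFit, robust, 13 residual degrees of freedom) in R 4.3.3, in 13 comparisons. Standard errors are the log2 fold change divided by the root of F, and 95% intervals use the residual degrees of freedom. The test was tried on simulated counts. DESeq2 1.42.0, limma 3.58.1 (voom), other scaling, no filter, the compared groups alone and left-out libraries were alternatives. All 9 members are named, with up to 4 called genes of each pathway list by smallest adjusted p and the 3 genes most like each member by Pearson r of log2 CPM. The members, lists and tests were chosen with earlier results of these data known. Figures were drawn with matplotlib 3.10.9. Total counts of 37002909 to 95559841 leave the spread between pigs, with 2 or 3 in a group, as the limit of precision.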

Additional observations from a re-analysis of the deposited data

Results flagged for a closer look

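For 3 members the order of MI and naive hearts turned round between day 7 and day 28 with no overlap on either day, although the difference itself did not pass in the edgeR fit. Over all genes tested, 462 had this pattern (3.01%) and 161 the opposite one (1.05%). The MI effect of day 28 minus that of day 7 was -2.18 on the log2 scale for PPARA (SE 0.855, adjusted p = 0.191), -1.99 for PPARGC1B (SE 0.538, adjusted p = 0.109) and -2.77 for ESRRB (SE 0.786, adjusted p = 0.118). Without each library in turn, the edgeR values kept their sign, at -3.27 to -1.50 for PPARA, -2.17 to -1.69 for PPARGC1B and -3.48 to -2.22 for ESRRB. The summed cardiomyocyte markers of MI and naive hearts overlapped on day 7 and did not on day 28 (45930 and 61010 CPM in MI hearts, against 89750 to 104200 CPM in naive hearts), and their part in these differences was not tested. Library totals did not overlap on day 7 (75071994 to 92831231 counts in MI hearts, against 37002909 to 48321350 in naive hearts), and the part of depth was not tested.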

How the results depend on the processing

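No paired analysis was possible because the pig numbers in the titles differ between groups and the replicate numbers were given in accession order. Among 1548 log2 fold changes of members under alternatives, 1520 kept their side of the threshold, 17 lost a call, 11 gained one and none reversed a call, while 133 values that were never called changed sign. The number of members called was 0 in the edgeR fit for MI against naive on day 7, and 1 with DESeq2 and 3 with limma voom. It was 0 on day 28, and 2 with DESeq2. For the mean of the 3 days it was 1, 0 without the 4 libraries that stood apart, and 0 to 1 without single libraries. For the MI effect of day 28 minus day 7 it was 0, 2 with DESeq2 and 1 with the compared groups alone. For naive day 14 against day 7 it was 0, and 1 with limma voom. For MI day 28 against day 7 it was 1, 2 with DESeq2, 0 with limma voom, with a term for the libraries that stood apart, without those libraries or with the compared groups alone, and 0 to 1 without single libraries. For any difference among the 8 groups it was 0, and 3 with DESeq2. The cause was not tested in any of these. Counts over all genes moved more. MI against naive on day 28 gave 1053 genes, 17 to 1162 without single libraries and 2 to 2213 under the other alternatives, and the mean of the 3 days gave 681, 186 to 1082 and 415 to 1625. MI day 28 against day 7 gave 267, 0 to 917 and 0 to 1376, any difference among the groups gave 117, 20 to 396 and 0 to 1807, and MI against naive on day 7 gave 0 and up to 2040. The MI effect of day 28 minus day 7 gave 2, 1 to 528 and 1 to 717, and naive day 14 against day 7 gave 0 and up to 918. Of 72 group means of members, 71 moved by less than 1 SD with the size factors of DESeq2. The members were not short of counts, the least having 159 in a library, but on day 7 depth differed between MI and naive hearts without overlap. With 2 or 3 pigs in a group, differences inside the intervals given were not resolved, and whether the controls had the operation is not settled.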
